A study of Mus musculus with 6 samples.

Results

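The 8 genes Slc2a2, Gckr, Pfkl, Pfkfb1, Pfkfb3, Khk, Pklr and Pdk4 serve glucose and fructose entry, glycolysis and the control of pyruvate dehydrogenase in the liver. They are listed by name, with no threshold on their values but with earlier results of these data known, and are 8 of the 23284 genes counted. Liver mRNA was sequenced from male FXR-floxed mice that had received, at 8 weeks of age, AAV8-TBG-Cre together with AAV8 carrying either FXR-WT or Y67F-FXR under the same TBG promoter. Cre recombinase removes the floxed mouse gene for FXR, the bile acid receptor, and TBG is a hepatocyte promoter, so deletion and replacement were directed to hepatocytes and not to the other cells of the liver. Y67F-FXR has phenylalanine in place of the tyrosine that the study describes as phosphorylated after FGF19. At 4 weeks after injection, all mice received chow with 0.5% cholic acid (CA) for 6 h. The comparison was of 3 Y67F-FXR with 3 FXR-WT livers, 1 library each, and asked which transcripts differ when this tyrosine is missing in bile acid-fed mice. No liver without CA, without Cre or with Cre alone was analysed here, and what the mice ate before the CA chow is not given in the labels.

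The liver takes up glucose through the transporter GLUT2 and traps it as glucose 6-phosphate, a step under the control of a nuclear regulatory protein. Phosphofructokinase then commits the sugar to glycolysis, under the control of fructose 2,6-bisphosphate made and broken down by the bifunctional Pfkfb enzymes. Fructose enters below that step through ketohexokinase, pyruvate kinase makes pyruvate, and pyruvate dehydrogenase kinases switch off the complex that turns pyruvate into acetyl-CoA. After a meal the liver runs these steps forward, and during fasting it runs glucose 6-phosphatase, fructose bisphosphatase and phosphoenolpyruvate carboxykinase in the opposite direction.

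None of the 8 genes passed the test for a difference between Y67F-FXR and FXR-WT livers. All 8 passed the filter on low counts and were fitted with the whole table, 12453 genes, by the quasi-likelihood test of edgeR, and p-values were adjusted over all of these by the Benjamini-Hochberg method. Called here means a fold above 1.5 with an adjusted p below 0.05, by edgeR where no other tool is named. Of all tested genes, 0.972% were called, 0.546% higher (68 genes) and 0.426% lower (53 genes) in Y67F-FXR livers. The unadjusted p was under 0.05 for 2 of the 8, Pdk4 and Khk, and for 13.4% of all tested genes. The 3 livers of one group lay wholly above those of the other for 2 of the 8, Pdk4 and Gckr, and for 20.6% of all tested genes. The fitted value was higher in Y67F-FXR for 6 of the 8, against 52% of all genes, and the median log2 fold change was 0.19 against 0.01. DESeq2 called 1 of the 8, Pdk4, and 3.46% of all genes. Nothing particular to the 8 is read from counts this small, and each gene is described singly below.

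**Figure D1:**
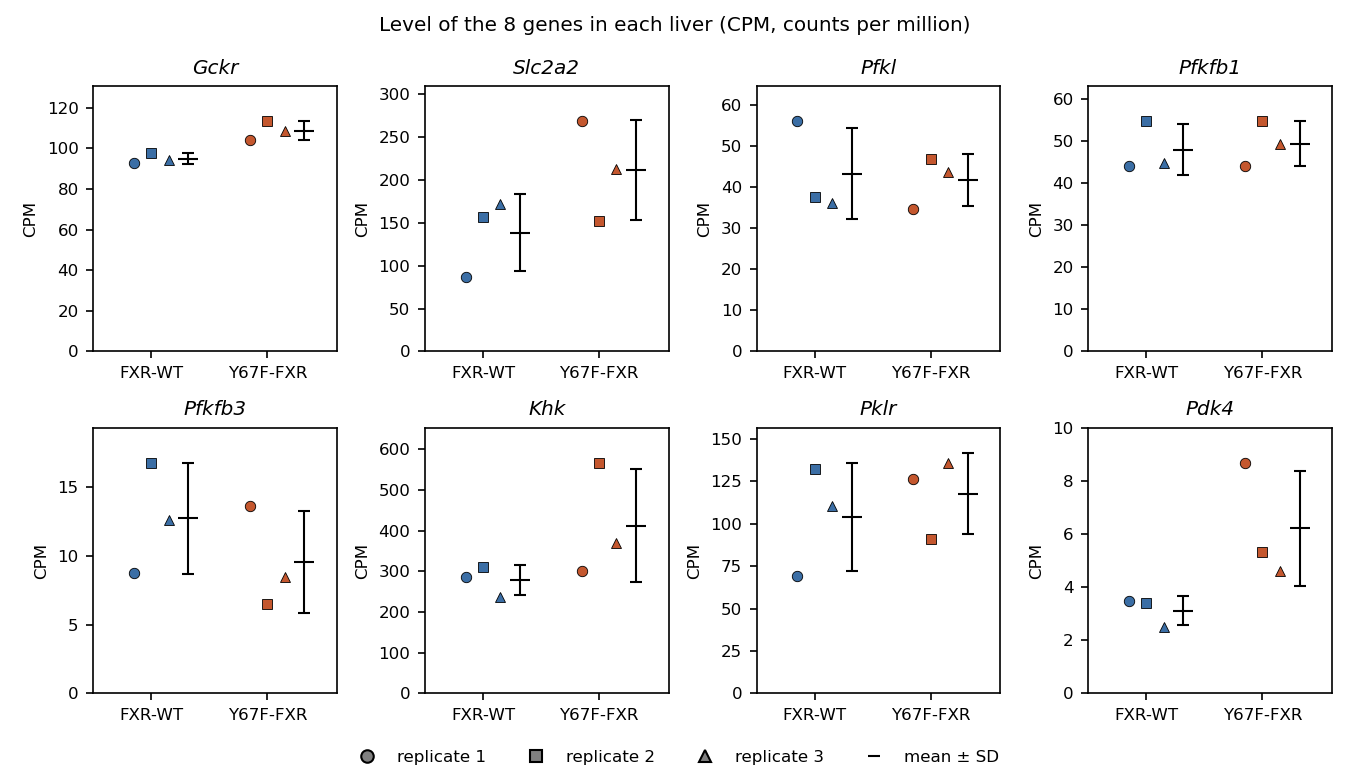
Each panel gives 1 of the 8 genes, with CPM (counts scaled by library total and TMM factor) on a linear vertical axis from 0, a point per liver (the marker shows the replicate number) and the mean ± SD of 3 livers. The groups lie apart only for Gckr and Pdk4, and relative to the level the widest fitted spread is that of Pfkfb3.

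The 8 genes covered a wide range of levels. Levels are compared between genes per length, in RPKM, the CPM divided by the exon length of the files in kilobases. In FXR-WT livers the order of mean RPKM was Khk (249 ± 33.3, SD, n = 3), Slc2a2 (53.8 ± 17.4), Gckr (47.2 ± 1.31), Pklr (37.1 ± 11.4), Pfkfb1 (27.9 ± 3.48), Pfkl (11.6 ± 3.00), Pfkfb3 (2.41 ± 0.759) and Pdk4 (0.905 ± 0.155). The ranges of Slc2a2 and Gckr, of Gckr and Pklr, and of Pklr and Pfkfb1 overlapped in these livers, while the other neighbours were apart in all 3. In Y67F-FXR livers the order of the means was the same. There each of the first 7 genes was above the next in all 3 livers except Pfkfb3 and Pdk4, whose means were 1.80 and 1.80 RPKM and whose ranges overlapped. Pdk4, the least abundant of the 8 in FXR-WT livers, was read from 58 to 179 counts per library, so that counting error weighs more on it than on the other 7.

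Slc2a2 encodes GLUT2, the main glucose transporter of hepatocytes (mm9, chromosome 3, 28596825 to 28627282). It had 87.2, 156 and 171 CPM in FXR-WT replicates 1 to 3 and 269, 152 and 213 CPM in Y67F-FXR replicates 1 to 3. The highest values were 2 Y67F-FXR livers, but the third Y67F-FXR liver lay below 2 of the FXR-WT livers, so the groups overlapped. Its log2 fold change was 0.61 (SE 0.287, 95% interval -0.05 to 1.27, adjusted p = 0.414), which ranged from 0.36 (without FXR-WT replicate 1) to 0.80 when each liver was left out. Among 5 genes of the Slc2a transporter family, Slc2a1, Slc2a2, Slc2a5, Slc2a8 and Slc2a9, its share of the summed RPKM was 62.1% ± 8.53 (SD, n = 3) in FXR-WT and 71.1% ± 4.91 in Y67F-FXR livers. The difference of 9.06 percentage points had a two-sided exact permutation p of 0.3, and 0.1 is the smallest that 3 livers against 3 can give. It was 4.14 percentage points without FXR-WT replicate 1, in which the share was 52.2%.

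Gckr encodes the nuclear protein that restrains this trapping step (chromosome 5, 31599954 to 31629675). It had 92.9, 98.0 and 94.1 CPM in the FXR-WT livers and 104, 114 and 108 CPM in the Y67F-FXR livers. All 3 Y67F-FXR values were above all 3 FXR-WT values, with little spread within a group. The difference was small, a log2 fold change of 0.20 (SE 0.106, 95% interval -0.05 to 0.44, adjusted p = 0.498), or 1.14-fold. Hk2, a hexokinase of muscle and fat, was low in all livers, at 1.17 to 2.00 CPM in FXR-WT and 0.340 to 1.24 CPM in Y67F-FXR (adjusted p = 0.443).

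Pfkl, the liver phosphofructokinase (chromosome 10, 77449694 to 77472541), had 56.1, 37.6 and 36.1 CPM in FXR-WT and 34.6, 46.9 and 43.6 CPM in Y67F-FXR livers. The highest value was FXR-WT replicate 1 and the lowest Y67F-FXR replicate 1, and between them the other 2 Y67F-FXR livers lay above the other 2 FXR-WT livers. This gave a log2 fold change of -0.05 (SE 0.202, 95% interval -0.52 to 0.41, adjusted p = 0.956), and its sign turned when FXR-WT replicate 1 or Y67F-FXR replicate 1 was left out (0.18 and 0.07). Pfkl made up 60.9% ± 5.99 (SD, n = 3) of the phosphofructokinase RPKM in FXR-WT and 57.4% ± 2.88 in Y67F-FXR livers (exact permutation p = 0.5). The difference of -3.55 percentage points was -0.154 without FXR-WT replicate 1 and -5.80 without FXR-WT replicate 3. Pfkm, the muscle isozyme, was at 19.3 to 20.9 CPM in FXR-WT and 22.5 to 25.6 CPM in Y67F-FXR livers, apart in all livers but not called (log2 fold change 0.22, adjusted p = 0.480, and 0.15 without Y67F-FXR replicate 2).

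Pfkfb1 encodes the liver form of the enzyme that makes and degrades fructose 2,6-bisphosphate (chromosome X, 147024464 to 147078403). It had 44.1, 54.9 and 44.9 CPM in FXR-WT and 44.0, 54.8 and 49.3 CPM in Y67F-FXR livers, nearly the same range. With a log2 fold change of 0.04 (SE 0.141, 95% interval -0.28 to 0.37, adjusted p = 0.949), the interval left out any difference above 1.5-fold in either direction. Its sign was not stable, with -0.03 under scaling by library totals.

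Pfkfb3, a form of the same enzyme with strong kinase activity that is widely expressed and inducible (chromosome 2, 11393058 to 11475556), was low. It had 8.75, 16.8 and 12.6 CPM in FXR-WT and 13.7, 6.49 and 8.45 CPM in Y67F-FXR livers. The lowest values were Y67F-FXR replicates 2 and 3, but the other Y67F-FXR liver lay above 2 of the FXR-WT livers. Pfkfb3 had a fitted log2 fold change of -0.41 (SE 0.318, 95% interval -1.15 to 0.32, adjusted p = 0.667), with a range from -0.76 (without Y67F-FXR replicate 1) to -0.16 (without FXR-WT replicate 2) over the fits without 1 liver. Of the Pfkfb RPKM, Pfkfb1 took 85.7% ± 1.36 (SD, n = 3) and Pfkfb3 took 7.29% ± 1.47 in FXR-WT livers, and they took 85.5% ± 5.26 and 5.46% ± 2.35 in Y67F-FXR livers. Neither share differed beyond the spread between livers (exact permutation p = 1 and p = 0.3). The difference in the Pfkfb3 share, -1.83 percentage points, was -0.838 without Y67F-FXR replicate 2 and -3.13 without Y67F-FXR replicate 1. The remaining isozymes did not pass the test, with log2 fold changes of 0.49 for Pfkfb2 (adjusted p = 0.401), the heart form, and -0.54 for Pfkfb4 (adjusted p = 0.612). The Pfkfb2 value was 0.23 without Y67F-FXR replicate 1.

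Khk encodes ketohexokinase, which phosphorylates fructose (chromosome 5, 31224268 to 31233619). It had 287, 311 and 238 CPM in FXR-WT and 300, 567 and 368 CPM in Y67F-FXR livers. Y67F-FXR replicates 2 and 3 were above all FXR-WT livers, and replicate 1 lay within the FXR-WT range. Khk had a fitted log2 fold change of 0.56 (SE 0.236, 95% interval 0.02 to 1.11, unadjusted p = 0.0438, adjusted p = 0.353). Without Y67F-FXR replicate 2, the liver with 567 CPM, it was 0.25, and in that liver the shortest 20% of all tested genes had a median deviation of 0.22 on the log2 scale, the highest of the 6. Khk is the shortest of the 8 genes, with 1117 exon bases. With offsets for gene length the log2 fold change was 0.54 (adjusted p = 0.121). A later step in fructose use is taken by triokinase, listed in the files under its older symbol Dak. Dak had 311, 353 and 330 CPM in FXR-WT and 472, 470 and 421 CPM in Y67F-FXR livers, with all 3 Y67F-FXR livers above (log2 fold change 0.45, SE 0.118, adjusted p = 0.140). The fitted values of Khk and Dak were thus both higher in Y67F-FXR livers and neither was called by edgeR, while DESeq2 gave Dak an adjusted p of 0.0122 at a fold below 1.5.

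Pklr, the pyruvate kinase of liver and red cells (chromosome 3, 88940064 to 88950516), had 69.1, 132 and 111 CPM in FXR-WT and 127, 90.7 and 136 CPM in Y67F-FXR livers. The lowest liver of each group was FXR-WT replicate 1 and Y67F-FXR replicate 2, and the ranges overlapped widely. The log2 fold change was 0.18 (SE 0.251, 95% interval -0.40 to 0.76, adjusted p = 0.838), and it was -0.05 without FXR-WT replicate 1. Pklr took 85.3% ± 8.38 (SD, n = 3) of the pyruvate kinase RPKM in FXR-WT and 86.5% ± 6.46 in Y67F-FXR livers (exact permutation p = 0.7). The rest was Pkm, the pyruvate kinase gene of most other tissues, listed under its older symbol Pkm2, which here stands for the whole gene.

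Pklr and Khk are shown with the sequence before their start because both are textbook targets of ChREBP, the glucose-sensing factor that binds pairs of E-boxes. The sequences are the 250 bases before the start, 5′ to 3′ on the gene's strand, from RefSeq on GRCm38.p6, a later build than the mm9 of the counts. Capitals mark an E-box (CACGTG) in Khk and the carbohydrate response element in Pklr, which was searched in the form known from Pklr, so that its presence there is no finding.
Pklr, liver start, chr3:89136373-89136622, plus strand: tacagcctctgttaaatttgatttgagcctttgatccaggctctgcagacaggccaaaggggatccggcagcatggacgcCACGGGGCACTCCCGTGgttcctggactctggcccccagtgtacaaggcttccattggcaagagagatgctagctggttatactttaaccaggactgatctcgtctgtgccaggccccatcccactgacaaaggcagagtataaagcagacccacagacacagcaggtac
Khk, chr5:30921309-30921558, plus strand: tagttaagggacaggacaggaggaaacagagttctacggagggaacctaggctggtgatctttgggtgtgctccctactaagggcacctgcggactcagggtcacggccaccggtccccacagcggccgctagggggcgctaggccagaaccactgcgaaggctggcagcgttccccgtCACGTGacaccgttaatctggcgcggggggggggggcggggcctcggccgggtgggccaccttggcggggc

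The Pklr element begins 170 bases before the start and was in 1 of 32851 such windows. The single E-box of Khk begins 71 bases before the start, and CACGTG was in 6.02% of all windows. Of the 13 windows of the 8 genes, 2 held CACGTG, 1 of Khk and 1 of Pfkfb3. A carbohydrate response element of perfect E-boxes was in no window of any gene. Searched on both strands, none of the 13 windows held a perfect inverted repeat 1, the element bound by FXR with RXR (0.00609% of all windows). The same was true of a perfect direct repeat 1 (PPAR with RXR, 0.0335%), the forkhead motif TGTTTAC (3.17%), the cAMP response element TGACGTCA (1.55%) and a perfect glucocorticoid response element (0.00913%). A match or its absence describes these letters in this window only.

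Pdk4 encodes pyruvate dehydrogenase kinase 4, the fasting-induced kinase that inactivates pyruvate dehydrogenase (chromosome 6, 5433351 to 5446278). It was counted at 71, 70 and 58 reads in FXR-WT and 179, 98 and 97 reads in Y67F-FXR livers, which is 3.47, 3.39 and 2.51 CPM against 8.70, 5.35 and 4.63 CPM. All 3 Y67F-FXR livers were above all 3 FXR-WT livers, with Y67F-FXR replicate 1 the highest. The log2 fold change was 1.00, or 2.00-fold (SE 0.280, 95% interval 0.35 to 1.64), the largest of the 8 genes and larger in size than that of 97.6% of all tested genes. The unadjusted p was 0.00742 and the adjusted p 0.166, so Pdk4 was not called by edgeR's quasi-likelihood test. DESeq2 gave it an adjusted p of 0.0368. It was 0.68 without Y67F-FXR replicate 1 and 1.18 at most over the fits without 1 liver, with adjusted p from 0.221 to 0.383. The Pdk4 sequence before the start (chr6:5496279-5496528, minus strand, GRCm38.p6) held none of the motifs searched.

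Pdk4 was not the main kinase of the complex in any liver. Of the summed RPKM of 4 kinase genes, Pdk4 took 1.16% ± 0.242 (SD, n = 3) in FXR-WT and 1.73% ± 0.535 in Y67F-FXR livers (exact permutation p = 0.2). This difference of 0.568 percentage points was 0.277 without Y67F-FXR replicate 1. Pdk2 took from 84.1% to 88.6% and from 78.8% to 82.3%, and Pdk1 from 9.59% to 14.5% and from 16.2% to 18.9%. Pdk3 had 3 to 14 reads per library and did not pass the filter. Pdk1 had 36.2, 59.7 and 58.0 CPM in FXR-WT and 106, 81.4 and 88.5 CPM in Y67F-FXR livers (log2 fold change 0.84, SE 0.207, adjusted p = 0.124). Pdk2 had 147, 153 and 156 CPM in FXR-WT and 194, 176 and 198 CPM in Y67F-FXR livers (log2 fold change 0.32, SE 0.110, adjusted p = 0.253). The 3 kinases that could be tested were thus higher in every Y67F-FXR liver than in any FXR-WT liver, where 20.6% of all tested genes lay apart. None was called by edgeR, while DESeq2 called Pdk4 and Pdk1 (adjusted p = 0.00938 for Pdk1), and the length offsets in edgeR called Pdk1 (adjusted p = 0.0360). Of all tested genes, edgeR called 0.972% and DESeq2 3.46%. The summed RPKM of the 4 kinases was 73.5, 80.3 and 81.0 in FXR-WT and 109, 95.5 and 107 in Y67F-FXR livers. Pdp1 and Pdp2, the phosphatases that reactivate the complex, had log2 fold changes of -0.97 (adjusted p = 0.461) and 0.61 (adjusted p = 0.337). Without 1 liver these ran from -1.40 to -0.49, nearest to 0 without FXR-WT replicate 1, and from 0.37 to 0.79, nearest to 0 without Y67F-FXR replicate 1. The 5 subunit genes of the complex (Pdha1, Pdhb, Dlat, Dld and Pdhx) lay between -0.02 and 0.15 and none was called.

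**Figure D2:**
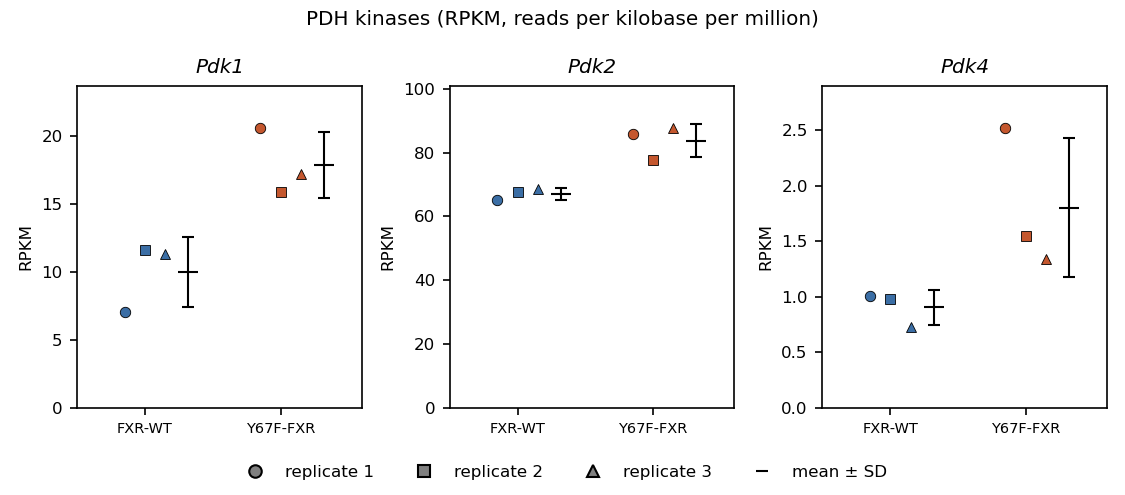
The pyruvate dehydrogenase (PDH) kinases Pdk1, Pdk2 and Pdk4, each on its own linear axis in RPKM from 0, with a point per liver (the marker shows the replicate number) and the mean ± SD of 3 livers. In all 3 panels the Y67F-FXR livers lie above the FXR-WT livers, and edgeR called none of the 3 genes while DESeq2 called Pdk1 and Pdk4. Of all tested genes, 20.6% lay apart, 0.972% were called by edgeR and 3.46% by DESeq2.

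The genes whose levels over the 6 livers were most like those of Pdk4 were Wdr90, Gtf2e1 and Pptc7. The measure was the root mean square distance between the deviations from each gene's mean on the log2 CPM scale, over 6 livers in 2 groups, and genes with a mean below 1 CPM were left out. The distance was 0.159, 0.197 and 0.199, against a median of 0.602 over all genes compared. This distance includes the difference between the groups, so fold changes and test results like those of Pdk4 follow from the choice of these genes. Their log2 fold changes were 0.93, 0.76 and 1.05, and none was called by edgeR (adjusted p = 0.128, 0.145 and 0.0540), against 0.972% of all tested genes. DESeq2 called all 3 (adjusted p = 0.0199 for Wdr90, 0.0296 for Gtf2e1 and 0.000153 for Pptc7), against 3.46% of all tested genes. Pptc7 was called by edgeR without the filter on low counts (adjusted p = 0.0361) and with length offsets (0.0215).

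**Figure D3:**
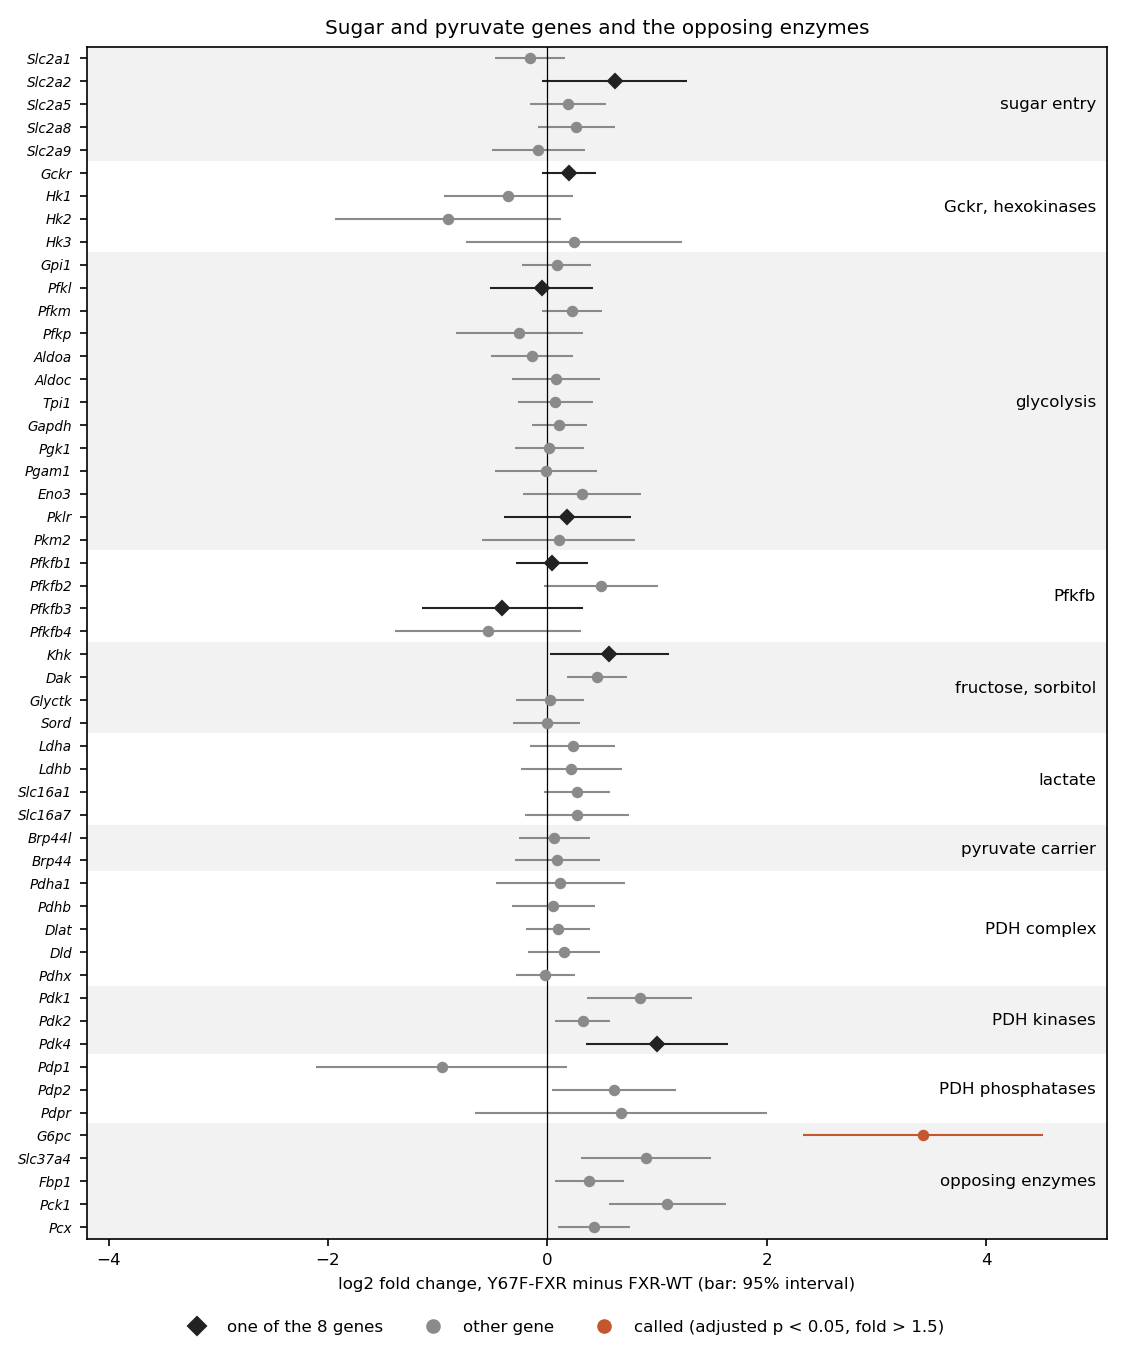
The log2 fold change (Y67F-FXR minus FXR-WT) with its 95% interval is drawn for 47 tested genes of the pathway, grouped by role. At the bottom are 5 genes of the opposite direction, labelled opposing enzymes although Slc37a4 encodes a carrier. Diamonds are the 8 genes and the orange point is the called gene, G6pc at 3.42, while most intervals cover 0.

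From the wider pathway, 52 genes of sugar entry, glycolysis, fructose and lactate use and pyruvate dehydrogenase were taken and 47 could be tested. By edgeR, 0 of these 47 were called, against 0.972% of all genes, with 6 below an unadjusted p of 0.05, against 13.4%. DESeq2 called 2, Pdk4 and Pdk1, against 3.46% of all genes. The median log2 fold change was 0.10 against 0.01 over all genes, and the groups lay apart for 17.0% against 20.6%. The 13 genes of glycolysis proper tested here ran from -0.26 to 0.31 and none was called, Gapdh, for example, with 499 ± 12.2 CPM in FXR-WT and 539 ± 17.5 CPM in Y67F-FXR livers (SD, n = 3). Eno3, the muscle enolase, was low, at 4.67 to 5.57 CPM in FXR-WT and 4.42 to 7.91 CPM in Y67F-FXR livers (log2 fold change 0.31, adjusted p = 0.652). Without Y67F-FXR replicate 2 its value was 0.09, and without Y67F-FXR replicate 1 it was 0.51. The 4 lactate genes had fitted values of 0.22 to 0.27, including 0.23 for Ldha, the lactate dehydrogenase that forms nearly all of the family's mRNA in liver (99.7% ± 0.0624 and 99.8% ± 0.0122 of its RPKM), and 0.27 for Slc16a1, the lactate and pyruvate transporter. The Ldha value was 0.12 without Y67F-FXR replicate 2 and 0.39 without FXR-WT replicate 1. The mitochondrial pyruvate carrier genes, listed as Brp44l and Brp44, were at 0.06 and 0.09, and each changed sign in some fits without 1 liver. Eno1 was listed at 0 in all 6 libraries. It shares 92.8% of its exon bases with the gene model Gm5506, and reads on several genes were not counted, so its level was not measured.

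The 5 genes of the opposite direction, enzymes and the carrier Slc37a4, had higher values in every Y67F-FXR liver than in any FXR-WT liver. All 5 had an unadjusted p under 0.05. By edgeR 1 of the 5, G6pc, was called, and by DESeq2 3 were, G6pc, Pck1 and Slc37a4. Of all tested genes, 20.6% lay apart, 13.4% had such a p, and 0.972% and 3.46% were called by edgeR and DESeq2. G6pc, the catalytic subunit of glucose 6-phosphatase, which releases free glucose, had 13.3, 52.6 and 31.5 CPM in FXR-WT and 471, 281 and 293 CPM in Y67F-FXR livers. It rose by 3.42 on the log2 scale (SE 0.475, adjusted p = 0.0244), or 10.7-fold, although the adjusted p was 0.105 without FXR-WT replicate 3, 0.0571 without Y67F-FXR replicate 1 and 0.0810 without Y67F-FXR replicate 3. Pck1, which makes phosphoenolpyruvate, was 1.09 higher on the log2 scale (adjusted p = 0.0872), with 1932 ± 616 CPM in FXR-WT and 4120.3 ± 588 CPM in Y67F-FXR livers (SD, n = 3). Pck1 passed with DESeq2 (adjusted p = 0.000497), with length offsets (0.0417) and without FXR-WT replicate 2 (0.0409). Values for Slc37a4, the glucose 6-phosphate carrier of the endoplasmic reticulum, Pcx, pyruvate carboxylase, and Fbp1, fructose bisphosphatase, were 0.90, 0.42 and 0.38 (adjusted p = 0.169, 0.246 and 0.268), and DESeq2 gave Slc37a4 an adjusted p of 0.0288. Slc37a4 was at 458 CPM in Y67F-FXR replicate 2, against 264 and 268 CPM in the others of its group, and its edgeR value was 0.58 without that liver.

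Pfkl and Pklr were also set against the enzymes of the opposite direction, as a log2 ratio of RPKM within a liver. Fbp1 over Pfkl was 5.93, 6.24 and 6.28 in FXR-WT and 6.71, 6.51 and 6.48 in Y67F-FXR livers, a difference of 0.42. Pck1 over Pklr was 4.56, 4.42 and 3.99 in FXR-WT and 5.34, 5.47 and 4.91 in Y67F-FXR livers, a difference of 0.92. For both pairs every Y67F-FXR liver was above every FXR-WT liver, and the exact permutation p was 0.1, the smallest possible for 3 livers against 3 (adjusted p = 0.1 over 2 ratios). Pfkl and Pklr themselves had fitted values of -0.05 and 0.18, smaller than those of Fbp1 and Pck1, their opposites. Fbp1 and Pck1 already lay apart between the groups on their own, so the ratios are not a separate result on Pfkl and Pklr.

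**Figure D4:**
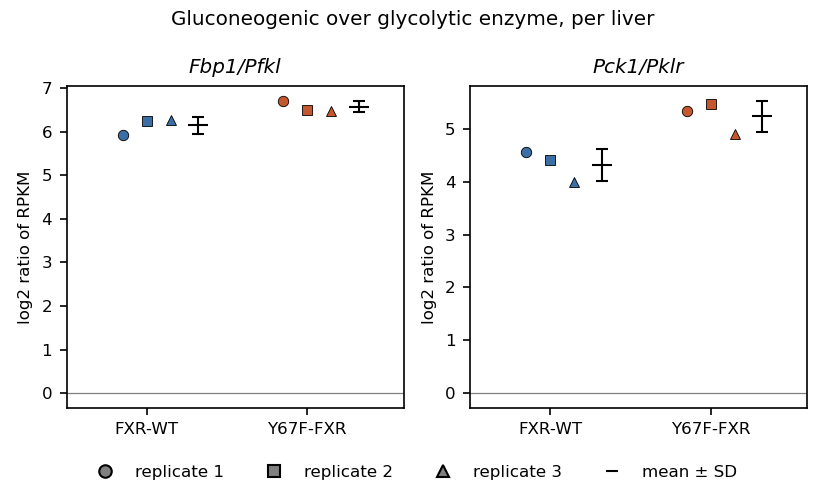
The log2 ratio of RPKM of a gluconeogenic over a glycolytic enzyme is shown per liver for 2 opposing pairs, with the mean ± SD of 3 livers and a line at 0, where the mRNAs are equal per length. The groups lie apart in each panel, Fbp1 over Pfkl by 0.42 and Pck1 over Pklr by 0.92.

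The factor that drives Pklr with glucose and genes that follow feeding were read beside these genes. Mlxipl, the gene of ChREBP, had 177 ± 28.6 CPM in FXR-WT and 124 ± 22.4 CPM in Y67F-FXR livers (log2 fold change -0.52, adjusted p = 0.255), and Mlx, its partner, had -0.36 (adjusted p = 0.238). Of 9 genes of ChREBP, its partner and its targets, 2 were called, both higher in Y67F-FXR livers, against 0.972% of all genes, the groups lay apart for 7, against 20.6%, and the median was -0.12. The called genes were Txnip, which limits glucose uptake, from 49.1 ± 15.0 to 176 ± 22.1 CPM (SD, n = 3, log2 fold change 1.84, adjusted p = 0.0175), and its relative Arrdc4, from 7.63 ± 0.766 to 19.3 ± 1.74 CPM (1.34, adjusted p = 0.0139). Without FXR-WT replicate 3 their adjusted p was 0.0884 and 0.0614, and without Y67F-FXR replicate 3 it was 0.0648 and 0.0529. Txnip shares 606 exon bases with Gm15441, and reads on both genes were not counted. Of 8 genes that are higher in fasting, 0 were called (edgeR), 6 had an unadjusted p under 0.05 (13.4% of all genes), 7 had fitted values above 0 (52%), and the median was 0.93. The exception was Fgf21 at -1.64, with 63.0, 14.6 and 14.6 CPM in FXR-WT and 8.70, 12.6 and 8.35 CPM in Y67F-FXR livers, so that FXR-WT replicate 1 carried most of its difference. Of 5 tested genes that are higher after feeding, 0 were called, 3 had fitted values above 0 and 2 below, and the median was 0.08. An unadjusted p under 0.05 was found for 2 of these, Fasn at -0.43 and Acacb at 0.54, which went opposite ways. How much each mouse had eaten is not given in the labels, and the part of feeding in the values of G6pc and the Pdk genes was not tested.

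Depth was similar in the 6 libraries, no tested marker of another cell type was called, and 4 of the 6 livers deviated by gene length. Totals ranged from 19551113 to 22053320 reads, and the 8 genes together took 0.0650% to 0.0827% of them in FXR-WT and 0.0904% to 0.0972% in Y67F-FXR libraries. Khk weighed most in this sum, with 10388 of 18998 reads in Y67F-FXR replicate 2, and did not itself lie apart between the groups. Nr1h4, the FXR gene, had 186 ± 30.2 CPM in FXR-WT and 175 ± 9.84 CPM in Y67F-FXR livers (SD, n = 3, adjusted p = 0.861), and counts do not separate the mouse gene from reads of the vector that align to it. Defining hepatocyte genes were abundant, with 103815 to 127397 CPM summed over 7 genes, while skeletal muscle genes, which could add Pfkm or Hk2, summed to at most 0.342 CPM over 4 genes. Of 10 Kupffer cell and leukocyte genes none was called by edgeR, against 0.972% of all genes, and their sum was 326 CPM in Y67F-FXR replicate 2, the liver highest for Khk, against 124 to 228 CPM in the other 5. Of these 10, 4 had fitted values above 0 and 6 below, and the median was -0.04. Within this list the neutrophil genes S100a8 and S100a9 lay lower in every Y67F-FXR liver (-2.73 and -1.95, adjusted p = 0.0529 and 0.106), at 1 to 26 and 7 to 69 reads per library. Marco, in the same list, was at 1.63 (adjusted p = 0.388), with 62.2 CPM in Y67F-FXR replicate 2. Of 8 stellate and smooth muscle genes none was called, 1 had a fitted value above 0, against 52% of all genes, and the median was -0.47 against 0.01, with Lrat, a stellate cell gene, at -1.15 (adjusted p = 0.0540), while their sum ran from 208 to 229 CPM in FXR-WT and from 149 to 209 CPM in Y67F-FXR livers. Of 5 endothelial genes none was called, 2 had fitted values above 0 and 3 below, and the median was -0.11. Among them Lyve1 was at -0.89 (adjusted p = 0.210) and lower in every Y67F-FXR liver than in any FXR-WT liver. Of 5 cholangiocyte genes none was called, 4 had fitted values above 0 and 1 below, and the median was 0.05. Of 5 red cell genes 1 could be tested and was not called. The other 4, globin genes, were at 0 in every library. They share 96.8% to 99.5% of their exon bases with another gene, and reads on several genes were not counted, so they did not measure red cell content. The part of these cells in the values of the 8 genes was not tested. In bulk liver, fewer cells of a type and less RNA per cell cannot be told apart.

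The median log2 deviation of the shortest 20% of genes was highest in 2 livers, Y67F-FXR replicate 2 (0.22) and FXR-WT replicate 1 (0.20), and lowest in Y67F-FXR replicate 1 (-0.20) and FXR-WT replicate 3 (-0.18). The 2 highest were the lowest livers of their groups for Slc2a2, Pklr and Pfkfb3. For Pfkl, Pfkfb1, Gckr and Khk the lowest Y67F-FXR liver was replicate 1, while the lowest FXR-WT liver was replicate 3 for Pfkl and Khk and replicate 1 for Pfkfb1 and Gckr. The part of gene length in these values was not tested beyond the offsets, under which none of the 8 genes was called. Without FXR-WT replicate 1 and Y67F-FXR replicate 2, a choice made after the data were seen, none of the 8 genes was called. Fitted log2 values were then 0.54 for Slc2a2, 0.27 for Khk, 0.10 for Pklr and 1.17 for Pdk4.

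**Figure D5:**
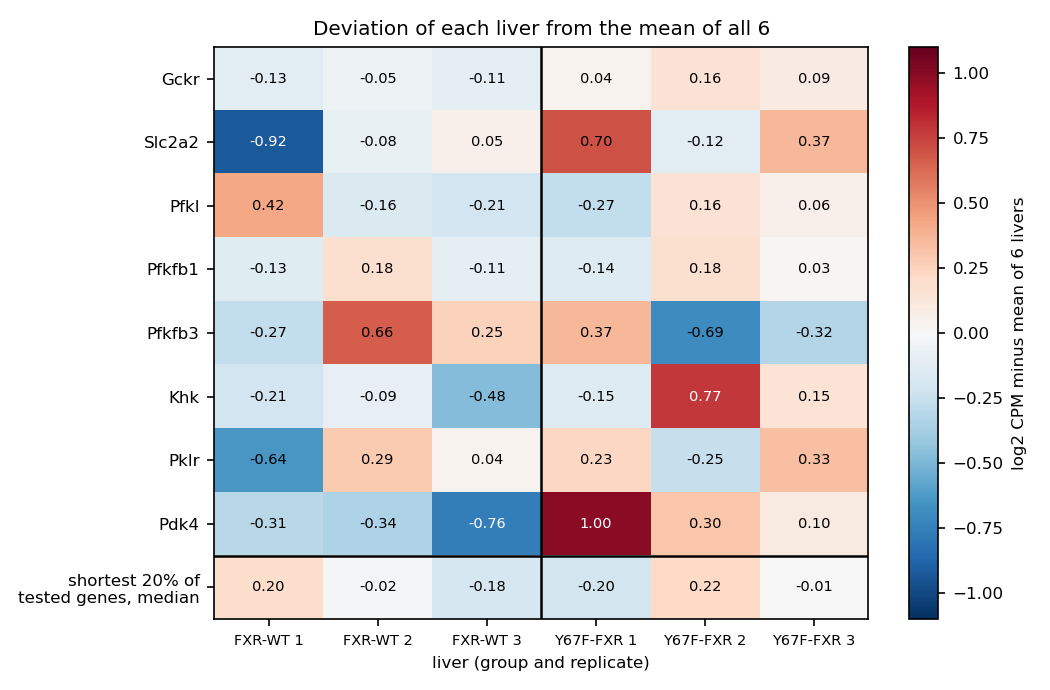
Cells give the log2 CPM of each of the 8 genes in each liver minus the gene's mean over the 6 livers, with red above and blue below the mean, and the bottom row gives the median deviation of the shortest 20% of tested genes. Pdk4 and Gckr keep 1 sign per group, and Slc2a2 spans from -0.92 in FXR-WT replicate 1 to 0.70 in Y67F-FXR replicate 1.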

How the data were processed

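The authors deposited counts per gene for 6 mouse liver libraries (paired-end reads), made, per the file headers and the submitters' processing notes, with Trimmomatic 0.36, STAR 2.5.3a and featureCounts 1.4.6-p4 on gene models of mm9 from UCSC. Reads of a pair were counted singly, without strand, and reads on several genes or places were left out. A table of the authors' own comparison (log2 fold change, mean log2 CPM, p-value, false discovery rate) was not used. The 8 genes and all lists were chosen with earlier results of these data known. Counts were tested in R 4.3.3 with edgeR 4.0.16 (filterByExpr, TMM factors, glmQLFit, glmQLFTest, no pairing), and with DESeq2 1.42.0 as an alternative. Figures were drawn in matplotlib 3.10.9 (Python 3.11.15). Scripts were checked on simulated data. Standard errors come from the F statistic. Log2 CPM used a prior count of 2. Totals of 19551113 to 22053320 reads set the counting precision. The labels give separate livers as replicates. The 3 livers per group differed by more than counting noise. The study's legend gives more mice per group than were sequenced. Some genes and results of the pathway are not reported here, and the pathway counts leave them out. Besides the 8 genes, those named are the genes of the opposite direction, Nr1h4, called genes of the lists, the 2 tested genes with the smallest p in each role group of the pathway, and the 3 genes most like Pdk4. Others (such as Gapdh, Mlxipl, Mlx, Fgf21, Eno1, Pdk2, Pdk3, Pkm2, S100a8, S100a9, Marco, Lyve1 and Lrat) were named after their values were seen.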

Additional observations from a re-analysis of the deposited data

How the results depend on the processing

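None of the 8 genes was called under other scaling (RLE size factors, library totals), other filters, no minimum fold, offsets for gene length, the replicate number as a block or without any 1 liver, while DESeq2 called 1, Pdk4. Of the 47 pathway genes, DESeq2 called 2 (Pdk4 and Pdk1), the length offsets called 1 (Pdk1) and the fit without FXR-WT replicate 1 and Y67F-FXR replicate 2, chosen after the data were seen, called 1 (Pdk1), each against 0. Of all genes, 431 were called by DESeq2, 249 with length offsets, 202 without those 2 livers, 8 with the replicate block and 9 to 66 without any 1 liver (9 without FXR-WT replicate 3), against 121. Library totals gave 120 calls, 52 of them higher, in place of 68 of 121.

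Same-numbered livers correlated at -0.52, -0.08 and 0.12 over genes in their deviations from the group mean, so the numbers were not taken as pairs. With the block the adjusted p of G6pc was 0.119 and that of both Txnip and Arrdc4 0.0887.

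The log2 fold change turned sign for Pfkl over the fits without 1 liver (-0.17 to 0.18) and without both livers (0.072), for Pfkfb1 with library totals (-0.033), without both livers (-0.11) and over single livers (-0.050 to 0.15), for Pklr over single livers (-0.048 to 0.39), for Brp44 without both livers (-0.00020) and over single livers (-0.080 to 0.19), and for Brp44l with library totals (-0.0071) and over single livers (-0.050 to 0.13). Differences in share turned sign over single livers for Pfkfb1 (-2.47 to 2.70 percentage points), Pklr (-3.66 to 4.88) and Ldha (-0.0178 to 0.0426).

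Without division by length, the share of Pfkfb3 differed by -4.63 percentage points in place of -1.83. The cause of these shifts beyond fewer samples was not tested. With 3 livers per group, intervals of the 8 genes spanned 0.49 (Gckr) to 1.47 (Pfkfb3) on the log2 scale.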
